A study of Homo sapiens with 6 samples.

Results

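The BCL2 family decides whether the outer membrane of the mitochondrion stays intact. Its anti-apoptotic members (*BCL2*, *BCL2L1*, *BCL2L2* and *MCL1*) hold the effectors *BAX* and *BAK1* in check, and the BH3-only members (*BCL2L11*, *BBC3*, *BID* and *BAD*) relieve that hold or activate the effectors directly. Once active, *BAX* and *BAK1* form pores that let cytochrome c out and start the caspase cascade. *BCL2* is a classic target of the miRNA seed family to which *miR-195* and *miR-497* belong. The 10 genes named here were chosen by symbol, for their place in this family, and are 10 of the 21863 gene symbols in the expression list. All 10 had an RPKM above 0 in each of the 6 libraries.

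The study examined Hep G2, a human hepatoblastoma-derived liver cancer cell line, in which *miR-195* or *miR-497* was overexpressed by transfecting 5 nM of a double-stranded RNA mimic for 24 h. Non-transfected cells, given as 0 h in the labels, served as the reference, so the effect of transfection itself and that of the miRNA cannot be told apart. From each of the 3 conditions, 1 library was made from total RNA (mRNA-seq) and 1 from RNA co-precipitated with Argonaute2, the protein that carries miRNAs to their targets (Ago2-IP-seq). With 1 library per condition and fraction there is no replicate, so no p-value is given, and the intervals below are 95% counting intervals that leave out the variation between cultures. Differences given as log2 changes are relative to the median of all genes compared, which lay at 0.02 and 0.09 in total RNA and at 0.48 and -0.23 in the Ago2-IP libraries, *miR-195* first. A gene was counted as past the threshold when it lay at least 1.5-fold above or below that median. Both mimics were compared with the same non-transfected libraries, so their values against that reference are not independent.

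Inferred depth was 24700000 to 30900000 mapped reads in the total RNA libraries and 10600000 to 16800000 in the Ago2-IP libraries, the shallowest being the Ago2-IP library with *miR-497*. The Ago2-IP values are therefore the less precise. All 8 liver markers examined were detected in total RNA, with a summed level of 7620 to 7870 RPKM. *AFP* alone contributed 4290 to 4880 RPKM and *TTR* only 1.52 to 4.81 RPKM, and *TTR* was listed at 0 in the Ago2-IP library with *miR-497*. The 3 blood markers were at 0 in all 6 libraries, the 3 fibroblast markers summed to 1.90 to 2.64 RPKM in total RNA and the 2 endothelial markers to 0.283 to 0.420 RPKM.

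The mature miRNAs are shown first because they share the seed, bases 2 to 8 from the 5′ end, by which a miRNA pairs with its targets. The sequences are those of RefSeq, encoded on the minus strand of chromosome 17 in GRCh38.p14, at chr17:7017667-7017687 for *miR-195* and chr17:7017979-7017999 for *miR-497*, and the seed is in capitals.
hsa-miR-195-5p: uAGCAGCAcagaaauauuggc
hsa-miR-497-5p: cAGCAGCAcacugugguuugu
The seeds are the same, and the sequences downstream of the seed differ.

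The 7 bases that pair with this seed, TGCTGCT on the sense strand of the transcript, were searched in the annotated 3′UTRs of GENCODE release 44 on GRCh37, the genome build of the deposited values. Of the 10 genes, 4 held the match in at least 1 transcript (*BCL2*, *BCL2L2*, *BCL2L11* and *BID*), against 25.3% of the 18215 genes whose symbol could be matched. These 4 genes are the ones whose RNA could carry a canonical site, and the 22-base windows below show the matches in the canonical 3′UTRs, and the 1 match of *BID*, which lies in an alternative one, in the sense of the transcript, 5′ to 3′, with the matching bases in capitals.
BCL2, chr18:60793322-60793343, minus strand: aatatccaatcctgTGCTGCTA
BCL2L2, chr14:23778833-23778854, plus strand: cagaccgagggctcTGCTGCTt
BCL2L2, chr14:23778937-23778958, plus strand: gtgcattatgcactTGCTGCTg
BCL2L2, chr14:23779550-23779571, plus strand: caaggtgctaagatTGCTGCTc
BCL2L2, chr14:23780093-23780114, plus strand: tgcattaaggggttTGCTGCTg
BCL2L11, chr2:111922779-111922800, plus strand: gctacgcccctttgTGCTGCTg
BID, chr22:18220894-18220915, minus strand: gctggtgctggcccTGCTGCTg
The *BCL2* match alone runs on into an A opposite the first base of the miRNA, an 8-base match that 5.14% of genes held. Its inner bases GCTGCT begin at base 2530 of a 3′UTR of 5279 bases, and *BCL2* held 3 further 7-base matches, not shown, in the 3′UTR of 1 alternative transcript. *BCL2L2*, which encodes BCL-w, had 4 matches within 2786 bases, the most in the canonical transcript of any of these genes. The bases GCTGCT of the *BCL2L11* match began at base 986 of a 3′UTR of 4213 bases, and the *BID* match lay only in the 3′UTR of 1 alternative transcript. The shorter 6-base core, GCTGCT, which lies within the longer matches and was held by 46.0% of genes, was also found in *BCL2L1* and *BBC3*. *MCL1*, *BAX*, *BAK1* and *BAD* held neither. A match describes these letters and does not show that Ago2 bound there.

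In non-transfected Hep G2 cells the survival genes *MCL1* and *BCL2L1* were the most abundant of the 10, at 95.5 RPKM and 92.3 RPKM in total RNA. These are averages over the culture, in which fewer expressing cells and less RNA per cell cannot be told apart. The 2 genes stood above 96.2% and 96.0% of the 15224 genes detected in that library, and their counting intervals (93.6 to 97.5 and 89.9 to 94.7 RPKM) overlapped. The effector *BAX* followed at 37.7 RPKM, then *BCL2L2* at 22.7 RPKM and *BID*, which caspase-8 cleaves to link death receptors to the mitochondrion, at 12.1 RPKM. Lower still were *BCL2L11* (BIM) at 6.45, *BAD* at 5.04, *BAK1* at 3.83 and *BBC3* (PUMA) at 1.20 RPKM, of which *BAD* and *BAK1* were neighbours with overlapping intervals. *BCL2* itself was hardly detected. Its 0.0366 RPKM rested on 6 reads, and only 7.53% of the detected genes were lower. The gene after which the family is named thus contributed 0.0174% of the summed level of the 4 anti-apoptotic genes.

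**Figure D1:**
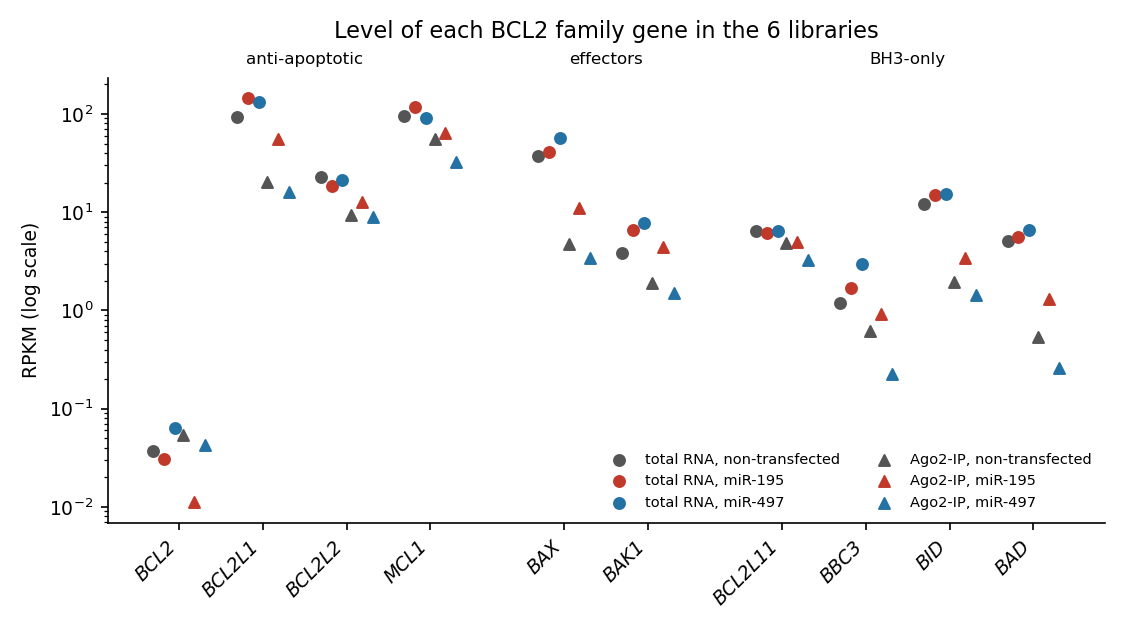
Level in RPKM (log axis) of the 10 genes in the 6 libraries, with total RNA as circles and Ago2-IP as triangles, non-transfected cells in grey, *miR-195* in red and *miR-497* in blue. *BCL2* lies between 0.0111 and 0.0634 RPKM in every library, while *MCL1* and *BCL2L1* lie above 90 RPKM in all 3 total RNA libraries.

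*BCL2* gave 0.0366 RPKM without transfection, 0.0309 RPKM with *miR-195* and 0.0634 RPKM with *miR-497* in total RNA, from 6, 6 and 13 reads. With so few reads, the log2 change relative to the median had an interval of -2.17 to 1.64 around -0.26 with *miR-195*, and of -0.80 to 2.38 around 0.70 with *miR-497*. A change of *BCL2* in either direction was therefore not detectable at this depth, and its nominal place past the 1.5-fold threshold with *miR-497* carries no weight.

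*BCL2L1*, which encodes the survival protein BCL-XL, was the anti-apoptotic gene with the clearest difference. Its level in total RNA was 92.3 RPKM in non-transfected cells, 145 RPKM with *miR-195* and 132 RPKM with *miR-497*. Both mimic libraries were higher, by 1.57-fold and 1.43-fold as deposited, and relative to the median the log2 change was 0.64 (0.59 to 0.68) and 0.43 (0.38 to 0.47). *BCL2L1* was past the threshold with *miR-195*, and in both mimic libraries its level was above that of *MCL1* beyond counting error.

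*MCL1*, which encodes a short-lived survival protein, lay on either side of the median. It was at 95.5 RPKM without transfection, 119 RPKM with *miR-195* and 91.7 RPKM with *miR-497*. The log2 change was 0.30 (0.26 to 0.34) after *miR-195* and -0.15 (-0.19 to -0.11) after *miR-497*, neither past the threshold. *BCL2L2*, the carrier of 4 seed matches, was at 22.7, 18.5 and 21.1 RPKM in the same order. It lay slightly below the median of all genes with both mimics, at -0.31 (-0.41 to -0.21) and -0.20 (-0.30 to -0.11), and was the only anti-apoptotic gene whose interval excluded the median on the low side in both comparisons. Part of its exonic sequence, 815 bases, is shared with the readthrough gene *BCL2L2-PABPN1* on the same strand, so that its reads cannot be assigned to it with certainty.

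Among the effectors, *BAK1* was higher with both mimics. It was at 3.83 RPKM in non-transfected cells, 6.62 RPKM with *miR-195* and 7.77 RPKM with *miR-497*, from 208, 426 and 528 reads. This is 1.73-fold and 2.03-fold as deposited, and 0.77 (0.53 to 1.02) and 0.93 (0.69 to 1.17) on the log2 scale relative to the median. *BAK1* was the one gene of the 10 past the threshold with both mimics, and both intervals excluded the median. *BAX* was at 37.7, 41.2 and 56.4 RPKM. With *miR-195* it was close to the median of all genes at 0.11 (0.00 to 0.22), and with *miR-497* it lay above it at 0.49 (0.39 to 0.59), short of the threshold. Transcript length moved with the *miR-497* change over all genes. Their median log2 change went from 0.29 in the shortest of 10 equal bins of transcript length to -0.06 in the longest. Against genes of its own length, *BAX* was at 0.29 with *miR-497* and *BAK1* at 0.80.

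Among the BH3-only genes, *BBC3* differed most. Its 3 levels, 1.20 RPKM without transfection, 1.71 RPKM with *miR-195* and 2.96 RPKM with *miR-497*, rested on 62, 105 and 192 reads. The log2 change relative to the median was 0.50 (0.03 to 0.97) after *miR-195* and 1.22 (0.80 to 1.65) after *miR-497*, the latter being past the threshold and the highest of the 10 genes.

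The other BH3-only genes stayed within the threshold. *BID* was at 12.1, 14.9 and 15.5 RPKM, with log2 changes of 0.28 (0.15 to 0.41) and 0.26 (0.13 to 0.39). *BAD*, which growth factor signalling inactivates by phosphorylation, was at 5.04, 5.62 and 6.53 RPKM, and both of its intervals included the median. *BCL2L11*, whose product binds the anti-apoptotic proteins broadly, was at 6.45, 6.15 and 6.45 RPKM, and its log2 change was -0.09 with each mimic.

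Of the 10 genes, 2 lay at least 1.5-fold above the median in total RNA with *miR-195* (*BCL2L1* and *BAK1*) and 0 below it, where 12.9% of the 14740 genes compared lay above and 8.93% below. With *miR-497*, 3 lay above (*BCL2*, *BAK1* and *BBC3*) and 0 below, against 14.2% and 7.36% of 14768 genes. Low genes pass such a threshold on few reads, and once genes under 1 RPKM were left out the shares above were 5.62% and 9.34%. On the side of the median, 7 of the 10 genes were above it after *miR-195* and 7 after *miR-497*, where 50.0% of all genes are. The median log2 change of the 10 genes was 0.21 and 0.35 relative to that of all genes. Neither value is adjusted for transcript length. Against genes of the same length, *BAD* was at 0.09, *MCL1* at -0.09 and *BBC3* at 1.07 with *miR-497*.

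**Figure D2:**
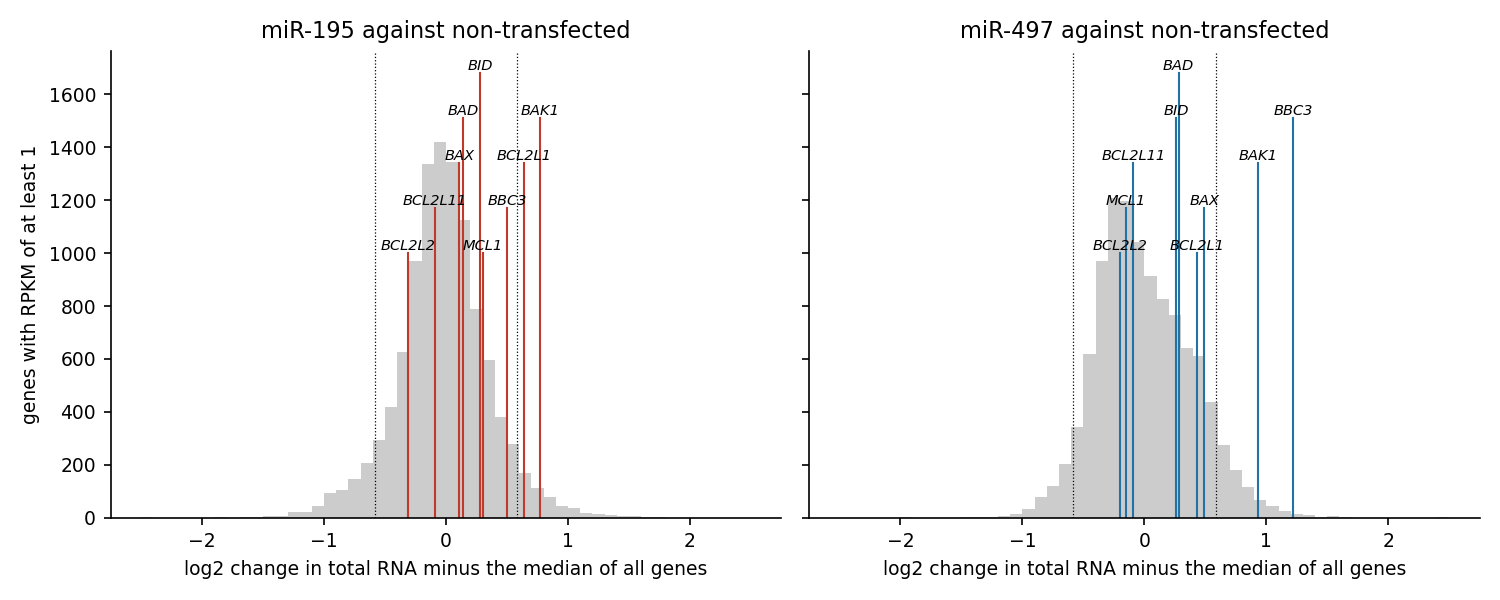
Log2 change in total RNA relative to the median of all genes, for genes that reach 1 RPKM in both libraries compared (grey bars count genes), with the 9 family members that reach this level as coloured lines whose heights only keep the labels apart, and dotted lines at 1.5-fold. *BAK1* lies to the right of the dotted line with both mimics, *BCL2L1* with *miR-195* and *BBC3* with *miR-497*, and none of the 9 lies to the left of it.

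The mimics were then compared with each other in total RNA, a contrast that does not use the non-transfected libraries. *BBC3* was lower with *miR-195* than with *miR-497*, with a log2 difference of -0.72 (-1.08 to -0.37) relative to the median, and *BAX* lay at -0.38 (-0.48 to -0.29). *MCL1* lay the other way, at 0.45 (0.41 to 0.48), as did *BCL2L1* at 0.21 (0.17 to 0.25). *BAK1* was at -0.16 with an interval of -0.35 to 0.03, and *BID*, *BAD* and *BCL2L11* also had intervals that included the median. Past the threshold were 0 genes above and 2 below (*BBC3* and the sparsely read *BCL2*), where 7.06% and 9.21% of 15042 genes were. Transcript length moved with this contrast over all genes, whose median difference went from -0.22 to 0.06 between the shortest and the longest of 10 equal bins of transcript length. Measured against genes of the same length, *BBC3* was at -0.62, *BAX* at -0.24 and *MCL1* at 0.43.

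**Figure D3:**
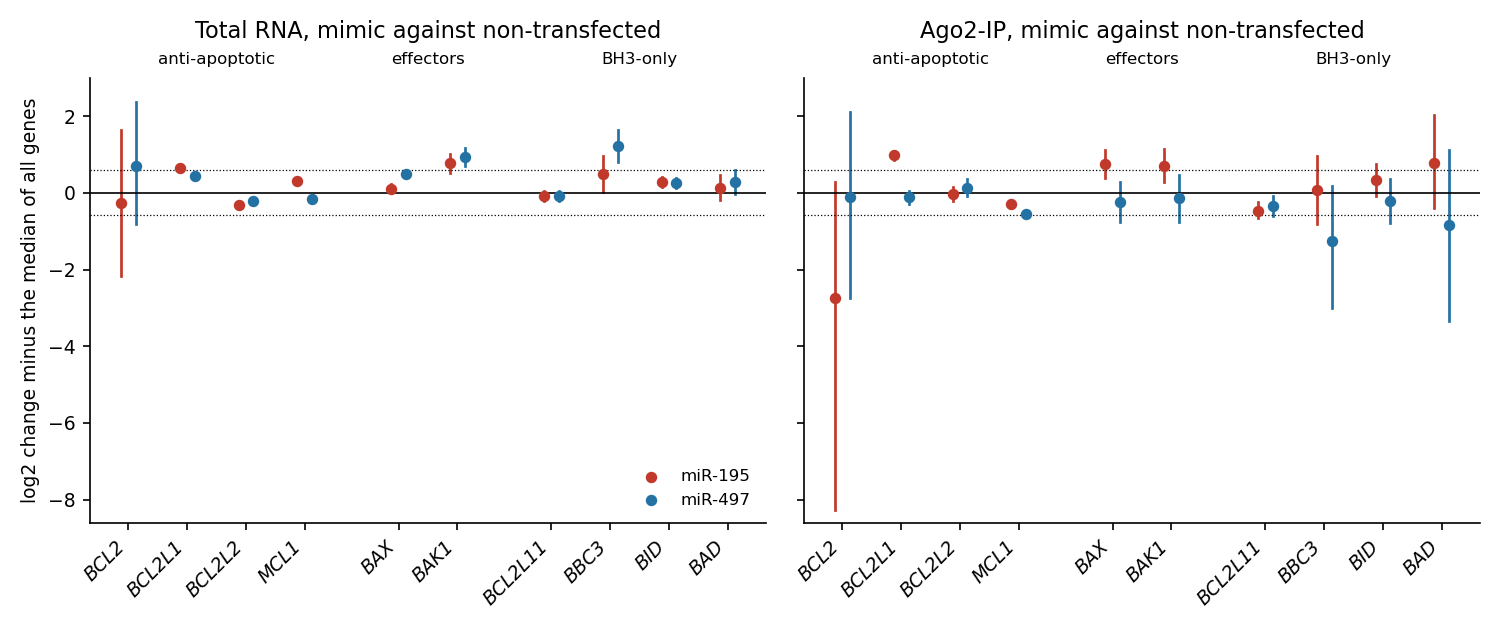
Log2 change of each gene in the libraries with *miR-195* (red) and *miR-497* (blue) against non-transfected cells, relative to the median of all genes (solid line at 0), in total RNA (left) and in the Ago2-IP fraction (right). Vertical bars are 95% counting intervals from inferred reads and dotted lines mark 1.5-fold. The bars of *BCL2* span the solid line in both panels.

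In the Ago2-IP fraction 6 of the 10 genes lay above the median of all genes with *miR-195* and 1 with *miR-497*, where 50.0% of genes do. With *miR-195*, *BCL2L1* went from 20.4 RPKM in non-transfected cells to 56.1 RPKM, *BAX* from 4.73 to 11.1 RPKM and *BAK1* from 1.92 to 4.39 RPKM. Relative to the median of all genes these are log2 changes of 0.98 (0.87 to 1.10), 0.76 (0.40 to 1.12) and 0.71 (0.29 to 1.15). *BAD*, at 0.542 and 1.29 RPKM, was nominally as high at 0.78, but its 10 and 19 reads left an interval of -0.40 to 2.04. None of these 4 genes holds the 7-base match.

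The genes with a match lay on both sides of the median. *BCL2L2* was at 9.37 RPKM in the Ago2-IP fraction without transfection and 12.8 RPKM with *miR-195*, level with the median of all genes at -0.02 (-0.20 to 0.16). *BCL2L11* was at 4.87 and 4.93 RPKM, below the median at -0.46 (-0.66 to -0.25), and *BID* at 1.94 and 3.39 RPKM, with an interval of -0.09 to 0.75 around 0.33. *BCL2* had 6 reads without transfection and 1 read with *miR-195*, a ratio of 0.206 with an interval of 0.00448 to 1.7, which includes no change. *MCL1*, without a match, was at 56.0 and 63.4 RPKM, higher as deposited (1.13-fold) but below the median at -0.30 (-0.36 to -0.23).

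With *miR-497* the levels in the Ago2-IP fraction were lower than without transfection for each of the 10 genes, as they were for most genes in that library. *MCL1* went from 56.0 to 32.8 RPKM, a log2 change of -0.55 (-0.63 to -0.46) relative to the median, and *BCL2L11* from 4.87 to 3.28 RPKM, a change of -0.34 (-0.60 to -0.09). *BBC3* went from 0.624 to 0.224 RPKM and *BAD* from 0.542 to 0.257 RPKM, on 5 and 3 reads with the mimic, and both intervals included the median. *BCL2L2* was the one gene above the median, at 8.84 RPKM and 0.14 (-0.07 to 0.36). *BCL2L1* was at 16.1 RPKM, *BAX* at 3.44, *BAK1* at 1.5 and *BID* at 1.44 RPKM, and these 4 had intervals that included the median.

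Counted over the family, 4 genes were past the threshold above the median and 1 below it with *miR-195* in the Ago2-IP fraction, against 21.4% and 17.4% of 14291 genes. With *miR-497* it was 0 above and 2 below, against 12.3% and 10.3% of 13866 genes. Directly between the mimics, 5 genes were past the threshold above (*BCL2L1*, *BAX*, *BAK1*, *BBC3* and *BAD*) and 1 below (*BCL2*), against 24.2% and 21.4% of 13992 genes. There *BCL2L1* had a log2 difference of 1.13 (0.98 to 1.28), *BAX* lay at 1.02 (0.55 to 1.52) and *BAK1* at 0.88 (0.33 to 1.46). *BBC3*, *BAD* and *BCL2* had 5, 3 and 1 reads in their lower library and intervals that included the median. Without centring 8 genes were above and 1 below, a count with no share of all genes beside it. The median log2 difference of all genes, 0.67, is left in that count. Against genes of its own length *BAX* was at 0.51, under the threshold.

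Transcript length moved with the Ago2-IP values over all genes. The median log2 change with *miR-195* went from 0.89 in the shortest of the 10 bins to 0.24 in the longest. *BAX* and *BAD*, whose longest annotated transcripts have 1358 and 1157 bases, fall in the shortest bin, *BCL2L1* with 3212 bases in the middle and *BCL2* with 7461 bases near the long end. Against genes of their own bin, the change of *BCL2L1* in the Ago2-IP fraction with *miR-195* remained at 0.94, whereas *BAX* was at 0.34, *BAK1* at 0.52 and *BAD* at 0.36, all below the threshold. For *miR-497*, *MCL1* was at -0.53 and *BBC3* at -1.17 on this scale, close to their values relative to all genes.

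The association of each RNA with Ago2 was read from the ratio of the Ago2-IP RPKM to the total RNA RPKM of the same condition, which is a relative measure because each library is scaled to its own depth. Without transfection this ratio was 0.755 for *BCL2L11*, 0.586 for *MCL1*, 0.522 for *BBC3*, 0.502 for *BAK1* and 0.412 for *BCL2L2*, all above the median ratio of 0.326 over all genes. It was 0.221 for *BCL2L1*, 0.160 for *BID*, 0.126 for *BAX* and 0.108 for *BAD*. Relative to the median, 5 genes were past 1.5-fold above and 3 below, where 32.3% and 31.2% of 14101 genes were, so a position this far from the median is common. *BCL2* had 6 reads in each library and an interval of 0.393 to 5.50 around a ratio of 1.47.

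The ratio also rose with transcript length, from a median of -2.76 on the log2 scale in the shortest bin to -0.92 in the longest. *BAX* and *BAD* lay near the level of their bin (-0.24 and -0.46 on the log2 scale), while *BBC3* (1.43), *BAK1* (1.12), *MCL1* (0.96) and *BCL2L11* (0.96) lay above theirs and *BID* (-0.67) below. The median ratio of all genes itself was 0.469 with *miR-195* and 0.260 in the *miR-497* cells, so the ratios of the mimic libraries are given relative to it. *BCL2L11* was at 2.31 times the median ratio without transfection, 1.71 times with *miR-195* and 1.95 times with *miR-497*. *BCL2L2* was at 1.26, 1.48 and 1.61 times the median ratio, and *BCL2L1* at 0.679, 0.825 and 0.468 times.

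**Figure D4:**
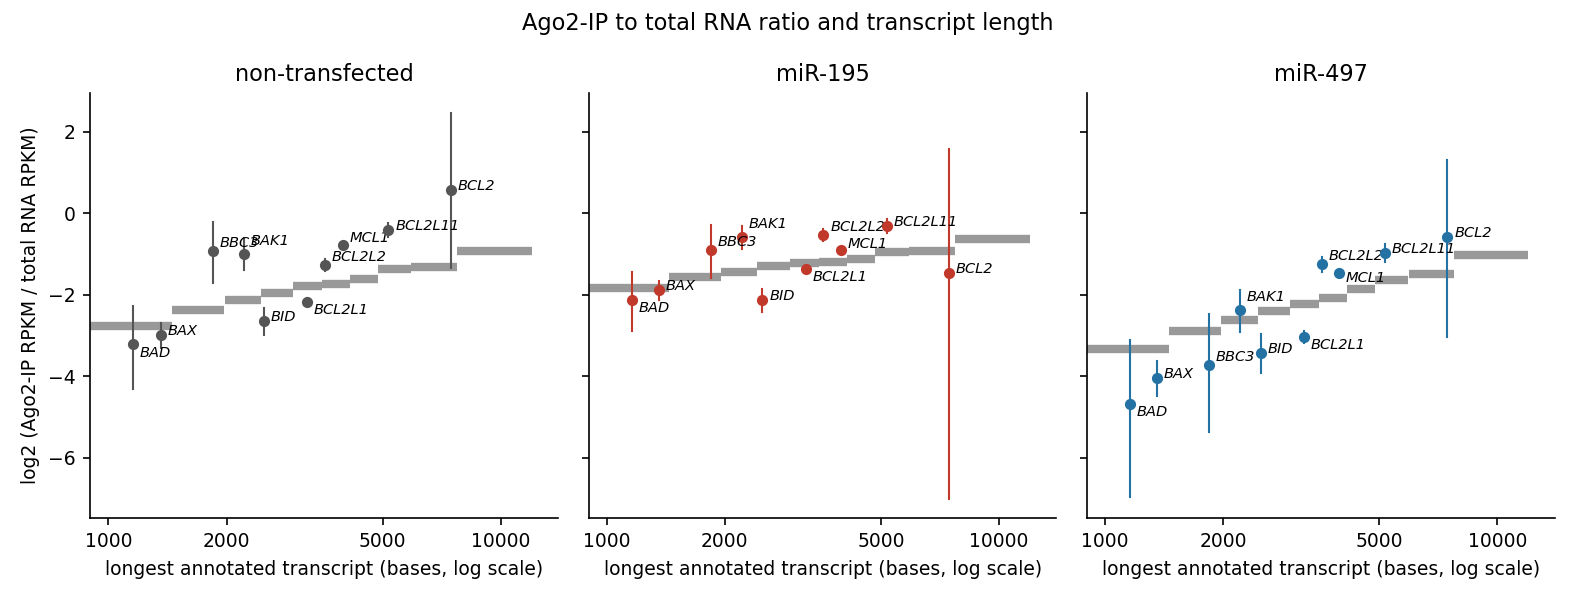
Log2 ratio of the Ago2-IP to the total RNA level of each gene against the length of its longest annotated transcript in bases (log axis), in the 3 conditions. Points are the 10 genes with 95% counting intervals and grey bars are the medians of all genes in each of 10 bins of length. The grey bars climb with length in all 3 panels, and *BID*, *BAX*, *BAD* and *BCL2L1* lie below their bars in each.

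The fold enrichment score divides the Ago2-IP to total RNA ratio with a mimic by that without, and is the measure by which the study ranked candidate targets. The median score of all genes was 1.38 after *miR-195* and 0.824 after *miR-497*, so a score is read against that value. With *miR-195* the score was 2.15 (1.67 to 2.77) for *BAX*, 1.75 (1.60 to 1.90) for *BCL2L1*, 1.68 (1.46 to 1.94) for *BCL2L2* and 0.910 (0.863 to 0.959) for *MCL1*. The first 3 lay above the median score and *MCL1* below it. *BAD* had 2.14, with an interval of 0.964 to 4.73, and *BID* 1.42, *BAK1* 1.32, *BCL2L11* 1.06 and *BBC3* 1.02.

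With *miR-497*, *BCL2L2* was the only one of the 10 genes above the median score, at 1.02 (0.867 to 1.20). The scores of *BBC3*, *BAK1* and *BAX* were 0.145 (0.0527 to 0.399), 0.384 (0.248 to 0.594) and 0.486 (0.340 to 0.693), past 1.5-fold below the median with intervals that excluded it. For *BBC3* the numerator rested on 5 reads. Against genes of its own length *BAX* was no longer past the threshold, at -0.48 with *miR-497* and at 0.28 with *miR-195*, while *BAK1* was at -0.96 and *BBC3* at -2.25 with *miR-497*. *BCL2L2* was also the only seed match carrier of the family whose score interval lay above the median with both mimics, at a log2 distance of 0.28 (0.08 to 0.49) after *miR-195* and 0.31 (0.07 to 0.54) after *miR-497*, neither reaching 1.5-fold. Against genes of similar length these distances were 0.30 and 0.29.

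In all, 5 of the 10 genes lay above the median score after *miR-195* and 1 after *miR-497*, where 50.0% of genes do by construction. Past 1.5-fold there were 2 above and 2 below with *miR-195*, against 18.6% and 16.9% of 13749 genes, and 0 above and 5 below with *miR-497*, against 12.6% and 20.6% of 13430 genes. These counts depend on the scaling. Without centring, which leaves in the median scores of 1.38 and 0.824, they were 4 above and 1 below for *miR-195* and 0 above and 8 below for *miR-497*. With upper quartile scaling they were 0 and 2, and 0 and 7, and against genes of the same length 0 and 2, and 0 and 4, in the same order. The shares of all genes under these other scalings are not given, so these counts describe the family alone. For comparison, *CCNE1*, a cyclin that the study followed as a target and that holds 2 of the 7-base matches, had scores of 12.6 and 2.34. The total RNA level of *CCNE1* with the mimics was 0.322-fold and 0.489-fold that without transfection. Leaving out *BCL2*, whose interval in total RNA with *miR-195* (0.225 to 3.15) is too wide to tell, the others of the 10 genes had lower scores than *CCNE1* and no decrease of that size in total RNA. *CCNE1* is not a typical scale, because among the targets the paper tested with reporter assays it had the highest score with each mimic. In the paper's values, *E2F3* scored below *BAX* with *miR-195*. With *miR-497*, *CDC25A*, *CCND3* and *CDK4* scored below *BCL2L2*.

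Set side by side, the 4 genes with a 7-base match had a median log2 change of -0.17 in total RNA with *miR-195* and the 6 without it had 0.40, with 3 of the 4 and 0 of the 6 below the median of all genes. Over all genes the corresponding medians were -0.08 and 0.02. With *miR-497* the medians of the family were 0.09 and 0.46 and those of all genes -0.08 and 0.02, and 2 of the 4 and 1 of the 6 were below the median of all genes. In the Ago2-IP fraction the family medians were -0.24 with and 0.73 without a match for *miR-195*, and -0.16 and -0.39 for *miR-497*, while over all genes both kinds lay within 0.02 of the overall median. Below the median there were 3 of the 4 and 1 of the 6 with *miR-195*, and 3 of the 4 and 6 of the 6 with *miR-497*. The group of 4 includes *BCL2*, whose values rest on 1 to 13 reads, and *BID*, whose match lies in a single transcript. None of these medians is adjusted for transcript length. Against genes of their own length, the 6 in the Ago2-IP fraction with *miR-195* were at 0.94 (*BCL2L1*), -0.27 (*MCL1*), 0.34 (*BAX*), 0.52 (*BAK1*), -0.14 (*BBC3*) and 0.36 (*BAD*). The 4 were at -2.58 (*BCL2*), 0.00 (*BCL2L2*), -0.37 (*BCL2L11*) and 0.23 (*BID*).

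The RPKM values, being per length, were summed over the 4 anti-apoptotic and the 6 pro-apoptotic genes. In total RNA the anti-apoptotic sum was 211 RPKM without transfection, 283 RPKM with *miR-195* and 245 RPKM with *miR-497*, and the pro-apoptotic sum was 66.3, 76.2 and 95.6 RPKM. Their ratio was 3.18 (3.05 to 3.31), 3.71 (3.58 to 3.84) and 2.56 (2.48 to 2.64), so that the mimics lay on opposite sides of the non-transfected cells by more than counting error. *MCL1* and *BCL2L1* together made up 89.2% to 93.4% of the anti-apoptotic sum, and *BAX* 54.1% to 59.0% of the pro-apoptotic sum, so these 3 genes carried most of both sums. Without *MCL1* the ratio was 1.73, 2.15 and 1.60, and without *BAX* 7.36, 8.08 and 6.25, in the same order. These ratios are not adjusted for transcript length, with which the *miR-497* change in total RNA moved over all genes.

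In the Ago2-IP fraction the sums were 85.9, 132 and 57.8 RPKM for the anti-apoptotic genes and 14.6, 26.0 and 10.1 RPKM for the pro-apoptotic genes. The ratio was 5.87 (5.36 to 6.43), 5.09 (4.68 to 5.52) and 5.70 (4.96 to 6.54), with overlapping intervals, and was higher than in total RNA in each condition. *MCL1* made up 65.2% of the anti-apoptotic sum in the Ago2-IP library without transfection against 45.4% in total RNA, and *BAX* 32.3% of the pro-apoptotic sum against 56.8%. *BCL2L11* took up 33.3% of the pro-apoptotic sum in that Ago2-IP library and 9.73% in total RNA. These sums describe RNA and say nothing of the amounts of protein.

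**Figure D5:**
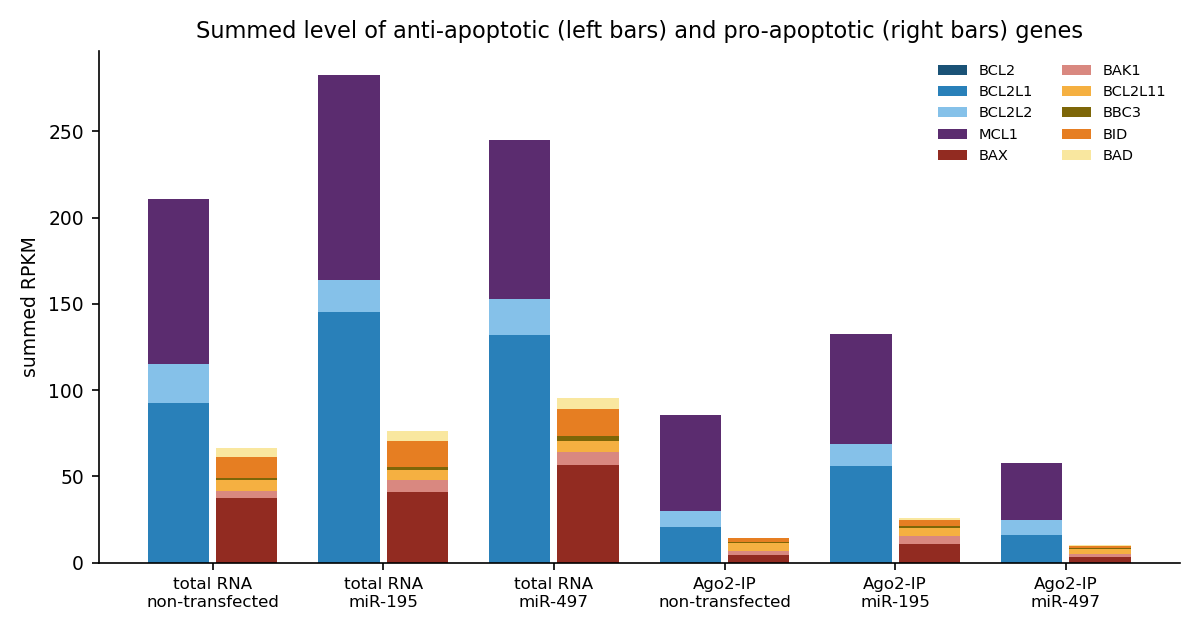
Summed RPKM of the 4 anti-apoptotic genes (left bar of each pair) and the 6 pro-apoptotic genes (right bar) in each library, stacked by gene. *BCL2L1* and *MCL1* fill most of each left bar, *BAX* most of the right bar in total RNA, and *BCL2* is too low to be seen.

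The rest of the apoptosis machinery was read from 4 lists. Of 13 other BCL2 family genes, 10 could be compared in total RNA with *miR-195*, of which 3 were past the threshold above (12.9% of all genes) and 2 below (8.93%), and with *miR-497* 1 was above (14.2%) and 1 below (7.36%). Of these, *BCL2L14*, *BCL2L15* and *BCL2A1* were hardly detected, at 0.0181, 0.0325 and 0.171 RPKM without transfection. In this list *BNIP3L*, a mitophagy receptor, was at 7.03 RPKM without transfection, 13.5 RPKM with *miR-195* and 8.40 RPKM with *miR-497*. *BOK*, an effector related to *BAX*, was at 8.34, 10.8 and 15.0 RPKM. Of the 13 genes of the apoptosome and the mitochondrial effectors, 0 were past the threshold with *miR-195* and 1 above with *miR-497*, this being *ENDOG*, a mitochondrial nuclease, at 3.90, 4.66 and 7.76 RPKM. *VDAC3*, a channel of the outer mitochondrial membrane, was at 135, 113 and 116 RPKM.

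The 8 genes of the death receptor arm had 0 past the threshold with either mimic in total RNA. *TNFRSF10B*, a TRAIL receptor, was at 53.2, 71.7 and 65.0 RPKM and *CASP8*, the initiator caspase of that arm, at 12.7, 15.8 and 13.7 RPKM. Among the 7 inhibitor of apoptosis proteins, 2 were above and 1 below with *miR-195*, and 1 above and 2 below with *miR-497*, against the same shares of all genes. Of the inhibitors past the threshold, all but *BIRC5* were low, *BIRC3* being at 0.106, *BIRC7* at 0.459 and *NAIP* at 0.235 RPKM without transfection. *BIRC5* (survivin), an inhibitor of apoptosis that also serves in mitosis, was the one gene of these 4 lists that reached 1 RPKM without transfection past the threshold with both mimics in the same direction. It was at 38.3 RPKM without transfection, 18.0 RPKM with *miR-195* and 26.3 RPKM with *miR-497*, which gives log2 changes of -1.10 (-1.23 to -0.97) and -0.63 (-0.75 to -0.52). It holds 1 of the 7-base matches, and its Ago2-IP level was 9.95, 8.05 and 4.05 RPKM.

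The median log2 change of the 4 lists in total RNA, relative to all genes, was 0.03 and 0.08 for the other BCL2 family genes, -0.09 and -0.07 for the mitochondrial list, 0.02 and 0.07 for the death receptor arm and 0.18 and -0.33 for the inhibitors, *miR-195* first. In the Ago2-IP fraction with *miR-195*, 4 of 9 other BCL2 family genes were past the threshold above and 1 below. Also above it were 2 of 13 mitochondrial genes and 1 of 8 death receptor genes. Of 7 inhibitors, 1 was above and 3 below. Among all genes in that comparison, 21.4% were past the threshold above and 17.4% below. With *miR-497* the numbers were 2 above and 3 below of 9, 0 of 13 and 1 below of 8. Of 6 inhibitors, 1 was above and 1 below. The shares of all genes for this mimic were 12.3% above and 10.3% below.

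The genes whose pattern over the 6 libraries was most like that of *MCL1* were *RCHY1*, *KIAA1826* and *IPMK*, at Euclidean distances of 0.148, 0.197 and 0.233 on centred log2 values, among 8582 genes that reached 1 RPKM throughout. *RCHY1* was at 10.2, 12.0 and 9.76 RPKM in total RNA and 5.28, 6.27 and 3.33 RPKM in the Ago2-IP fraction. *BCL2* was too low for this comparison. Several of the 10 genes share exonic bases with another gene, and since the strand of counting is not given in the sources used here, such reads cannot be separated. Beside *BCL2L2* with *BCL2L2-PABPN1*, these are *BCL2L1* with *ABALON* (1735 bases), *BCL2L11* with *MIR4435-2HG* (727 bases), *BAD* with *GPR137* (404 bases), *MCL1* with *ADAMTSL4-AS1* (328 bases) and *ADAMTSL4* (43 bases), and *BCL2L2* with *PPP1R3E* (315 bases) and *HOMEZ* (149 bases). *BAK1* shares 91 bases with *GGNBP1* and *BBC3* shares 80 bases with *MIR3191*.

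On GRCh37, *BCL2* lies at chr18:60790579-60987361 (minus), *BCL2L1* at chr20:30252255-30311792 (minus), *BCL2L2* at chr14:23767999-23780960 (plus), *MCL1* at chr1:150533371-150552214 (minus) and *BAX* at chr19:49458072-49465055 (plus). *BAK1* is at chr6:33540324-33548070 (minus), *BCL2L11* at chr2:111876955-111926021 (plus), *BBC3* at chr19:47724079-47736023 (minus), *BID* at chr22:18216904-18257536 (minus) and *BAD* at chr11:64037302-64052176 (minus). *BAX* and *BBC3* are the only pair on the same chromosome.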

How the data were processed

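The authors mapped single reads of 36 bases to hg19 with ELANDv2 and converted them with CASAVA 1.7 to RPKM, and each gene has 1 deposited RPKM value in each library. The gene annotation, the strand of counting, the read filters and the libraries that had poly-A selection are not given in the sources used here. Values were used as deposited. The 21891 lines held 21863 symbols, and lines of the 28 repeated symbols were averaged, none of them a BCL2 family gene.

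Genes with an RPKM above 0 in the libraries compared entered each ratio, with no pseudocount. Log2 changes were centred on the median of all genes compared. Whole reads were inferred from the steps between RPKM values (whole numbers were found for 15483 of 15487 genes tried, within a tolerance of 0.02 of a whole number). For *BAD* and *BCL2L2* the whole numbers were bases and were divided by the read length. These reads gave exact Clopper-Pearson intervals at 95% for ratios of 2 libraries, exact Poisson intervals for levels, and normal intervals on the log scale for scores and sums. They cover counting error only. The inference was tested on simulated data. Symbols were matched to GENCODE release 44 on GRCh37, 16384 by the same symbol and 1831 by an older one.

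All 10 genes are named in full. Of the 4 other lists, the genes named have an RPKM of at least 1 without transfection and were past 1.5-fold with both mimics in the same direction, or otherwise were the 2 with the largest mean change. The genes and lists were chosen with earlier results of these data known. Centring within 10 bins of transcript length was added after seeing the data. Python 3.11.15, numpy 2.4.6, pandas 2.3.3, scipy 1.17.1 and pysam 0.24.0 were used.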

Additional observations from a re-analysis of the deposited data

How the results depend on the processing

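The main limit is 1 library per condition, which leaves the variation between cultures unknown, and *BCL2* rests on 1 to 13 reads. No paired analysis was possible because each condition has a single library in each fraction and the labels give no replicate numbers to pair. Of the values of single genes recomputed under other settings, 478 moved by less than their counting interval, 63 moved by more and 1 reversed, this being the fold enrichment score of *BCL2* with *miR-497*, at 0.05 on the log2 scale with a pseudocount of 1 RPKM. That count of reversals covers values past 1.5-fold. Of the 478, 80 come from keeping lines of repeated symbols apart and 62 from the minimum RPKM of 1. Both settings leave the ratio of each of these genes as it was and can move only the median, so their sameness says little. Over all values 27 changed sign, 10 of them without centring, among these *MCL1* (0.18) and *BCL2L11* (0.02) in the Ago2-IP fraction with *miR-195* and the *miR-195* score of *BCL2L11* (0.09), which lay below the median of all genes. These signs turn because the median of all genes is left in, 0.48 in the Ago2-IP fraction with *miR-195* and 0.47 for the *miR-195* score. Why these genes lay below the median was not tested.

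The counts of family genes past the threshold changed as follows. A share of all genes is given only for the minimum RPKM of 1. The counts under the other settings have no such share beside them and describe the family alone. With a 2-fold threshold they were 0 and 1 in total RNA for *miR-195* and *miR-497*, 1 and 1 in the Ago2-IP fraction, and 0 between the mimics in total RNA. With a lower threshold, a ratio of 5 to 4, they were 5 in total RNA and 4 in the Ago2-IP fraction for *miR-497*, and 4 between the mimics in total RNA. With a pseudocount of 1 RPKM they were 3 and 1 in the Ago2-IP fraction and 0 between the mimics in total RNA, where a pseudocount of 0.1 RPKM gave 1. With a minimum RPKM of 1, which fewer family genes reach, they were 3 and 0 in the Ago2-IP fraction, the 3 above the median. Of all genes at this minimum, 16.4% were past the threshold above and 13.8% below in the *miR-195* comparison. The *miR-497* comparison had 4.56% above and 5.02% below. Between the mimics the family counts were 1 in total RNA, below the median, and 3 in the Ago2-IP fraction, above it. The shares of all genes there, above and below, were 2.14% and 3.61% in total RNA and 20.1% and 17.5% in the Ago2-IP fraction. Centred within 10 bins of transcript length, the count in the Ago2-IP fraction with *miR-195* was 2. The number of genes above the median score was 8 with *miR-195* without centring (scores above 1) and 2 with *miR-497* with a pseudocount of 1 RPKM. The 8-base match left 1 gene. Without *MCL1* the ratio of anti-apoptotic to pro-apoptotic levels was 1.73, 2.15 and 1.60 in total RNA and 2.04, 2.65 and 2.46 in the Ago2-IP fraction, and without *BAX* it was 7.36, 8.08 and 6.25, and 8.67, 8.88 and 8.62, for non-transfected, *miR-195* and *miR-497* cells.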

Other observations

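Outside the 10 genes, 2 other BCL2 family genes were singled out after their values were seen. *BIK*, a BH3-only gene whose 3′UTR holds 1 of the 7-base matches, had an Ago2-IP level of 0.563 RPKM without transfection, 5.64 RPKM with *miR-195* and 0.692 RPKM with *miR-497*. Its reads with *miR-195* were 73 against 9 without transfection, a ratio of 10.0 (95% counting interval 5.00 to 22.8), and with *miR-497* the ratio was 1.23 (0.389 to 3.71). In total RNA it was at 1.83, 1.26 and 1.97 RPKM, and the interval of the ratio with *miR-195* was 0.426 to 1.10. The fold enrichment score of *BIK* with *miR-195*, not centred, was 3.87 on the log2 scale, beside 3.65 for *CCNE1*. Relative to the median score these were 3.40 and 3.19. No interval was computed for these scores, and that of *BIK* rests on 9 Ago2-IP reads without transfection, so their order cannot be told. With *miR-497* the uncentred score of *BIK* was 0.19 and that of *CCNE1* 1.22, the former on 7 Ago2-IP reads with the mimic.

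*BCL2L12*, whose 3′UTR holds none of these matches, was at 8.21 RPKM in total RNA without transfection, 4.91 RPKM with *miR-195* and 9.69 RPKM with *miR-497*. In the Ago2-IP fraction it was at 3.88, 11.5 and 2.04 RPKM. With *miR-195* the ratio to non-transfected cells was 0.598 (0.503 to 0.710) in total RNA and 2.98 (2.36 to 3.78) in the Ago2-IP fraction, and with *miR-497* it was 1.18 (1.02 to 1.36) and 0.527 (0.348 to 0.779). Both genes come from 1 library per condition and fraction.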
